A study of Rattus norvegicus with 4 samples.

Results

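Kcnv1 neurofilament-rich neurons are sensory neurons of the rat dorsal root ganglion that carry transcripts of the potassium channel subunit gene Kcnv1 together with neurofilament transcripts. A cell barcode counted as a neuron when Snap25, Uchl1, Tubb3 and Stmn2 made up at least 20 of every 10000 unique molecular identifiers (UMIs, 1 per captured mRNA molecule) and exceeded the satellite glia genes Fabp7, Ttyh1, Sfrp5 and Kcnj10. Members were the neurons with at least 1 Kcnv1 UMI, at least 8 UMIs of Nefm and Nefh together, and fewer than 2 UMIs each of Pvalb, Tafa4, Adcyap1 and Cbln2. The rule found 788 members among 18479 neurons, or 4.26% of the neurons, in 46679 barcodes with at least 200 genes and at most 25% mitochondrial UMIs. Members were thus chosen by their measured UMIs of Kcnv1, the neurofilament genes, the 4 excluded genes and the neuron and glia genes, and every contrast between them and other neurons is a description without a test.

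The libraries came from wild-type naive male Sprague-Dawley rats in a CPIP group and a Sham group, with 2 libraries per group named CPIP 1, CPIP 2, Sham 1 and Sham 2. The labels leave CPIP unexplained (the abbreviation usually means chronic post-ischaemia pain), and they give neither a time after the procedure nor an age. Each library pooled the L4 to L6 ganglia of the operated side from 3 rats, dissociated with dispase, collagenase, DNase and papain, so a library is the unit of replication and single animals cannot be told apart. Cells were caught in microwells with barcoded beads (BD Rhapsody), and the libraries held 60885664 to 64550637 UMIs.

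Kcnv1 encodes Kv8.1, an electrically silent potassium channel subunit that makes no current alone and alters the channels it forms with other potassium channel subunits. Neurofilament proteins fill the axons of myelinated sensory neurons and set their calibre, whereas most unmyelinated C fibres hold little of them. The excluded genes mark other ganglion neurons: Pvalb marks proprioceptors, Tafa4 marks C-low-threshold mechanoreceptors, Adcyap1 encodes the peptide PACAP of many peptidergic nociceptors, and Cbln2 encodes a synaptic organiser found in touch neurons.

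Members were captured in every library, 174 in CPIP 1, 180 in CPIP 2, 214 in Sham 1 and 220 in Sham 2. The rule cut through a larger Kcnv1 population, since 1260 neurons had Kcnv1 and enough neurofilament UMIs and 472 of them were excluded. Adcyap1 alone or with another gene excluded 273, Tafa4 169, Cbln2 37 and Pvalb 6. Members held 1730 of the 3456 Kcnv1 UMIs found in neurons (50.1%). Kcnv1 was sparse in each cell: 435 members had 1 UMI, 158 had 2, 111 had 3 or 4, and 84 had 5 or more. At least 1 Kcnv1 UMI was found in 0.719% to 1.04% of satellite glia per library, cells that should lack the gene, at median depths of 4841 to 5879 UMIs. Members were deeper than other neurons, with median UMI counts of 7015.5 to 8308.5 per library against 2900 to 4339. No member's barcode was shared between libraries, in which each pair shared 1 to 5 barcodes in all.

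Members near the cut-offs were set beside the neurons just outside, and at the Kcnv1 cut-off the neurofilament level differed at similar depth. The 435 members with 1 Kcnv1 UMI had a median of 28.9 neurofilament UMIs per 10000, and the 3145 neurons without a Kcnv1 UMI that met the rest of the rule had 16.5, at median depths of 6878 and 7124 UMIs. The 33 members with exactly 8 neurofilament UMIs and the 48 neurons with 7 had 14.4 and 14.6 per 10000. This likeness follows in part from the counts that chose these cells, so it cannot show how members grade into neighbours. The 212 members with 1 UMI of an excluded gene had a median depth of 8826 UMIs, against 11336 UMIs in the 87 neurons excluded with 2.

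Of the label's 4 markers, Kcnv1, Nefm and Nefh were genes of the rule, so their levels above other neurons follow from it. Kcna1 was outside the rule, but as a marker of a label chosen with these data known it gives no independent check. Levels are given as CPM, the UMIs of a gene per 1000000 summed UMIs of a cell set. Kcnv1 averaged 211 CPM over the 4 libraries in members, against 26.6 CPM in Adcyap1 neurons, 6.64 CPM in Cbln2 neurons, 4.06 CPM in Pvalb neurons and 16.3 CPM in all other neurons. Nefm, the medium neurofilament subunit, averaged 3812 CPM in members, against 1622 CPM in all other neurons, 3759 CPM in Cbln2 neurons and 11872 CPM in Pvalb neurons. Nefh, the heavy subunit, was at 231 CPM in members and at 78.6 CPM in all other neurons, and was higher again in Pvalb neurons at 856 CPM. Kcna1, which encodes the axonal channel Kv1.1 and was not used by the rule, averaged 218 CPM in members against 87.6 CPM in all other neurons, and it was higher in Pvalb neurons (409 CPM) in all 4 libraries and in Cbln2 neurons (257 CPM) in 3 of 4. Neurofilament and Kcna1 were therefore intermediate in members, and "neurofilament-rich" held for the summed cells and not for every member, as the classes below show.

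The 25 genes with the largest ratio of members to other neurons, among those with at least 50 CPM in the members of every library, led with Kcnv1 itself. S100a16, a calcium-binding protein, came next at a ratio of 8.56. Nmb, the peptide neuromedin B, followed at 4.70, and its level was higher in members than in Pvalb, Cbln2 and Adcyap1 neurons in all 4 libraries. The same held for Mgll, the lipase that breaks down the endocannabinoid 2-AG (ratio 3.89), Cpne6, a calcium-dependent copine (3.80), Asic3, an acid-sensing channel of muscle and skin afferents (3.06), and Ngfr, the low-affinity neurotrophin receptor p75 (2.57). Ptger3, the prostaglandin E2 receptor EP3, was at a ratio of 2.61. Others of the 25, such as Chst2, Ackr1 and Lynx1, were higher in Pvalb neurons in every library.

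**Figure D1:**
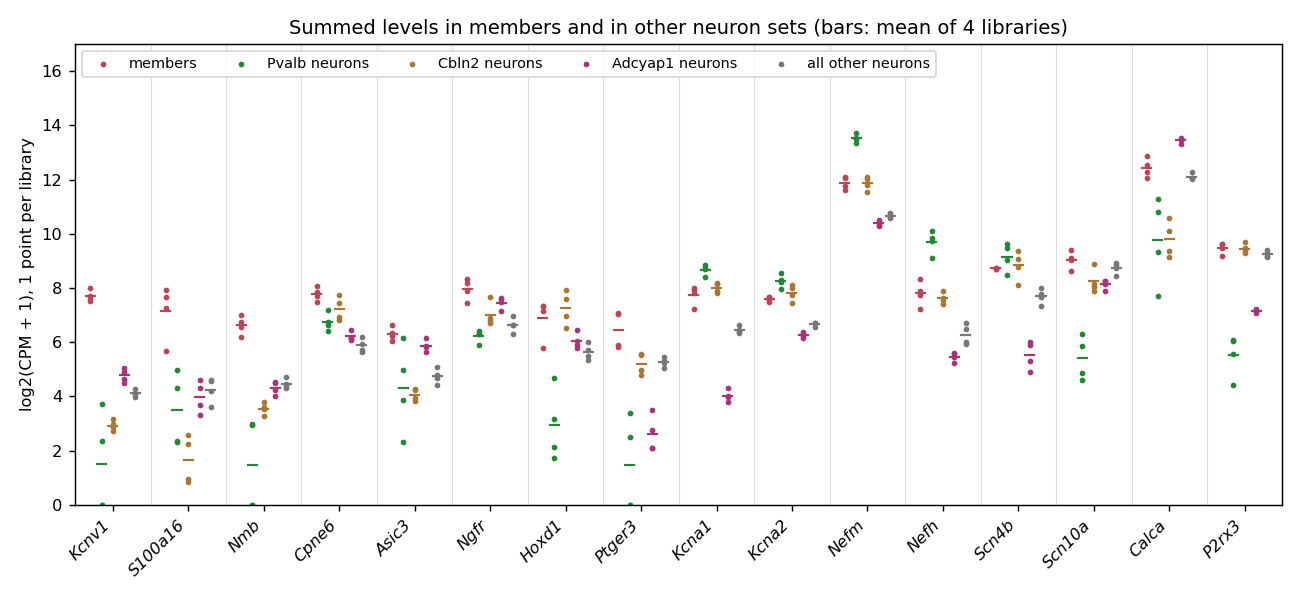
Level of 16 genes as log2(CPM + 1) in members, Pvalb, Cbln2 and Adcyap1 neurons and all other neurons; each point is 1 library and each bar the mean of 4. Kcnv1, S100a16, Nmb, Cpne6 and Ngfr are highest in members, whereas Nefm, Nefh and Kcna1 are highest in Pvalb neurons and Calca in Adcyap1 neurons.

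The 28 measured potassium channel pore genes summed to 1400.5 CPM in members. Their sums were 1335 CPM in Pvalb neurons, 1312 CPM in Cbln2 neurons, 585 CPM in Adcyap1 neurons and 1130 CPM in all other neurons. In every library 7 of them were above other neurons and 8 below, and the share of all genes on either side was not taken. Kcna2 (Kv1.2) averaged 192 CPM in members against 101 CPM in all other neurons, and Kcnd1 (Kv4.1) 208 CPM against 134 CPM. The 13 sodium channel genes summed to 2227 CPM in members, against 1181 CPM in Pvalb neurons, 1893 CPM in Cbln2 neurons and 1351 CPM in Adcyap1 neurons. Scn10a (Nav1.8 of nociceptors) averaged 536 CPM in members and 46.6 CPM in Pvalb neurons, and Scn4b, a beta subunit, averaged 422 CPM in members, 596 CPM in Pvalb neurons and 47.4 CPM in Adcyap1 neurons.

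Of 10 proprioceptor markers, 6 were below other neurons in every library, among them Pvalb, which the rule limited. The share of all genes below other neurons in every library was not taken, so such counts of markers have no background here. Runx3, a transcription factor of proprioceptors, averaged 2.93 CPM in members against 209.5 CPM in Pvalb neurons, whereas Whrn (whirlin) was above other neurons in every library, at 78.4 CPM against 30.1 CPM. Of 6 itch neuron markers, 5 were below other neurons in every library, among them Sst, somatostatin, at 15.2 CPM against 259.9 CPM; Htr1f, the sixth, was at 0.727 CPM against 0.458 CPM. Calca, which encodes the nociceptor peptide CGRP, had at least 5 UMIs in 730 members (92.6%) and in 2.12% of satellite glia. It also had them in 70.8% of the neurons without a Kcnv1 UMI that met the rest of the rule. In members thinned to 5000 UMIs the share was 76.2% to 84.2% per library.

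Members were not uniform, and a pair of cut-offs chosen after the values had been seen split them into 3 classes. The P2rx3 class had at least 3 UMIs of P2rx3, an ATP-gated channel of C-fibre nociceptors. The S100a16 class had fewer than 3 of P2rx3 and at least 2 of S100a16, and the Calca class held the rest. They numbered 301, 102 and 385 cells. Of the 301, 67 also had at least 2 S100a16 UMIs. Just inside and outside the P2rx3 cut-off lay 41 members with 3 UMIs and 75 with 2; 30 members of the S100a16 class had exactly 2 S100a16 UMIs and 40 of the Calca class had 1.

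**Figure D2:**
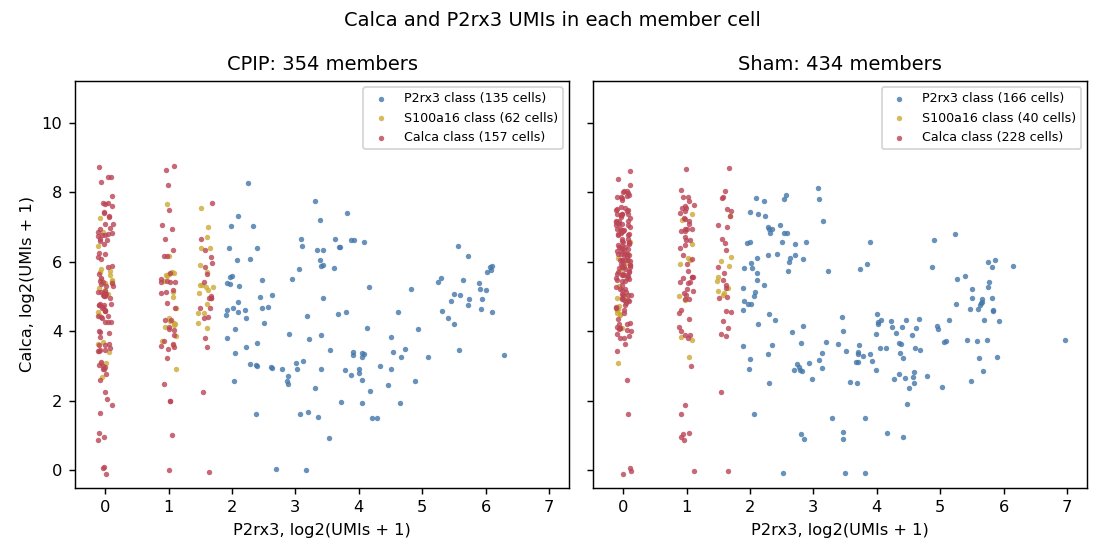
Calca against P2rx3 in each member, both as log2(UMIs + 1) with a small random offset, in CPIP (354 cells) and Sham (434 cells). Cells with few P2rx3 UMIs reach the highest Calca counts, and P2rx3-rich cells stay lower; both clouds appear in both groups.

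The P2rx3 class carried C-fibre genes and little neurofilament. Its median was 14.2 neurofilament UMIs per 10000, against 54.1 in the Calca class and 51.8 in the S100a16 class. It was also the deepest class, with a median of 11178 UMIs against 5565 and 7142 UMIs, and the rule asked for a number of UMIs and not a share. Iapp, the peptide amylin, averaged 246 CPM there and 0.379 CPM in the Calca class. Anxa1, annexin A1, averaged 967 CPM in the P2rx3 class and 19.5 CPM in the Calca class, and Nnat, neuronatin, 655 CPM and 24.4 CPM. Alk (a receptor tyrosine kinase) and Scn11a (Nav1.9) followed the same order, Scn11a with 515 CPM in the P2rx3 class and 72.6 CPM in the Calca class. Mrgprd, the textbook receptor of non-peptidergic C fibres, was at 0.195 CPM in the class.

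The S100a16 class had Hoxd1, a homeobox gene, at 386 CPM, against 108 CPM in the P2rx3 class and 81.1 CPM in the Calca class. Rbp4, retinol-binding protein, averaged 290.3 CPM in it and 83.1 CPM in the Calca class, and Nrp2, a semaphorin and VEGF receptor, 483 CPM and 200.4 CPM. Slc17a7, the vesicular glutamate transporter VGLUT1, and Pou4f3, a sensory POU factor, were also highest there, at 95.4 and 218 CPM. S100a16, S100a4 and S100a5 lie close together on rat chromosome 2 in the GRCr8 RefSeq annotation, and S100a16, which cut the class, was highest there in every library. S100a4 was highest there in CPIP 1, CPIP 2 and Sham 1 and had 0 UMIs there in Sham 2. S100a5 was at 188 and 138 CPM in the class in CPIP libraries, against 3.84 and 0 CPM in Sham libraries. Ptger3 was nearly absent, with 1.92 CPM. Outside the members, at least 2 S100a16 UMIs were found in 1.82% of other neurons, against 21.4% of members.

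The Calca class held most of the Kcnv1 signal. Kcnv1 averaged 394 CPM in it, 232 CPM in the S100a16 class and 103 CPM in the P2rx3 class. Calca itself averaged 11290.3 CPM, close to the 11232 CPM of Adcyap1 neurons, which the rule excludes. Cd9 (a tetraspanin) averaged 1683 CPM in the Calca class and 198 CPM in the S100a16 class. Asic1, an acid-sensing channel, averaged 405 CPM and 35.1 CPM in them, and Insrr, the alkali-sensing insulin receptor relative, 159 CPM and 79.0 CPM. Kcna1 was also highest in this class at 348 CPM, with 279 CPM in the S100a16 class and 134 CPM in the P2rx3 class.

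**Figure D3:**
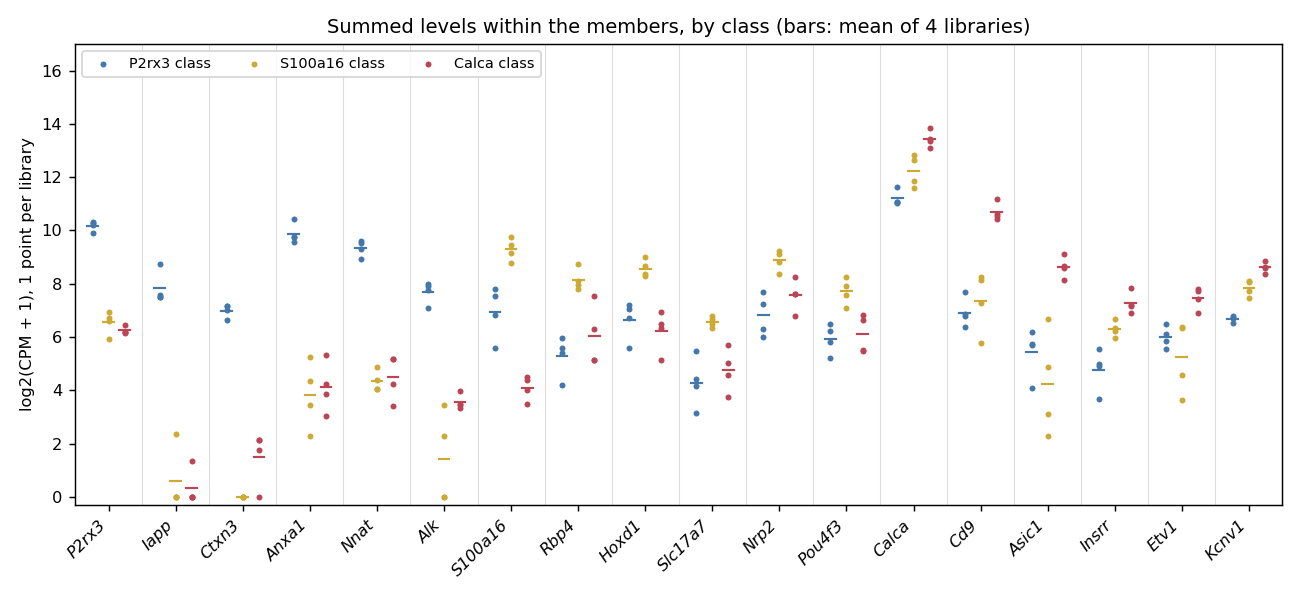
Level of 18 genes as log2(CPM + 1) in the 3 classes of members; each point is 1 library and each bar the mean of 4. P2rx3, Iapp, Ctxn3, Anxa1, Nnat and Alk separate the P2rx3 class, S100a16, Rbp4, Hoxd1, Slc17a7, Nrp2 and Pou4f3 are highest in the S100a16 class, and Calca, Cd9, Asic1, Insrr, Etv1 and Kcnv1 in the Calca class.

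The classes followed the number of Kcnv1 UMIs in a cell. Among members with 1 Kcnv1 UMI, 48.7% were of the P2rx3 class and 40.0% of the Calca class. Among those with 5 or more, 11.9% were of the P2rx3 class and 76.2% of the Calca class. The median Calca count was 19 UMIs in members with 1 Kcnv1 UMI and 171 in members with 5 or more, whose median depths were 6878 and 11130 UMIs. P2rx3 averaged 975 CPM at 1 Kcnv1 UMI, near the 836 CPM of neurons that failed the rule on Kcnv1 alone, and 80.5 CPM at 5 or more.

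Class shares differed between libraries of the same group. The P2rx3 class made up 41.4% and 35.0% of members in CPIP libraries, and 43.0% and 33.6% in Sham libraries. The Calca class made up 39.7% and 48.9% in CPIP libraries, and 43.0% and 61.8% in Sham libraries. The S100a16 class held 33 of 174 and 29 of 180 CPIP members, and 30 of 214 and 10 of 220 Sham members. Both CPIP shares of this class were above both Sham shares, with Sham 2 lowest, whereas the groups overlapped for the P2rx3 and Calca classes. Since the classes were cut after seeing the data, these shares were not tested.

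**Figure D4:**
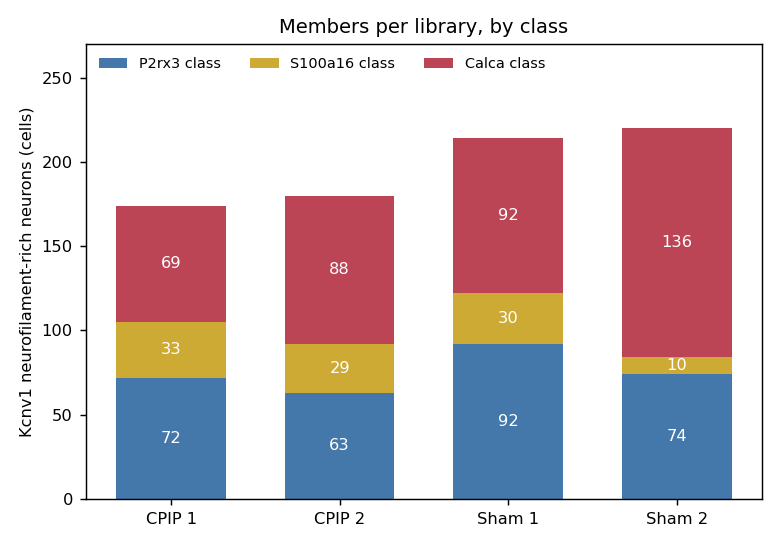
Members per library (y axis, cells) stacked by class, with CPIP libraries left of Sham libraries. The S100a16 class holds 33 and 29 cells in CPIP 1 and CPIP 2, and 30 and 10 in Sham 1 and Sham 2.

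The first comparison between groups asked whether members took another share of neurons in CPIP. Members made up 3.58% and 4.14% of neurons in CPIP libraries, and 4.64% and 4.73% in Sham libraries. Both CPIP values were below both Sham values. The means were 3.86% ± 0.393 in CPIP and 4.68% ± 0.0637 in Sham (SD, n = 2 each), a difference of -0.827 percentage points with p = 0.33 in a two-sided exact permutation test over libraries and 0.667 after adjustment over the 3 shares tested. With 2 libraries per group, 0.33 is the smallest p the test can give. After each cell was thinned to 5000 UMIs and shallower cells were left out, the shares were 5.11% ± 1.11 in CPIP and 5.15% ± 0.649 in Sham and the groups overlapped. The share with at least 5 Calca UMIs was 91.5% ± 2.60 in CPIP and 93.6% ± 0.526 in Sham (exact permutation p = 0.667).

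The second comparison asked which genes differed between CPIP and Sham members, with the UMIs of all members summed in each library. In edgeR's quasi-likelihood test with Benjamini-Hochberg adjustment, 0 of 9145 genes passed an adjusted p of 0.05, so percent called was 0 in either direction. At an unadjusted p under 0.05 there were 533 genes. DESeq2 called 6 genes, 5 higher (Rpl10a-ps9, S100a5, Pcp4, Rprm and Mbp) and 1 lower (Ptger3). For Mbp the top 3 cells held 56.1% and 18.2% of the UMIs in CPIP libraries, and 15.5% and 14.5% in Sham libraries. The count in edgeR rested on single libraries: it was 240 without CPIP 1, 36 without CPIP 2, 41 without Sham 1 and 5 without Sham 2, in fits that take the lone library to vary like the other group. S100a5 and Rpl10a-ps9 passed in each of these 4 fits, and Ptger3, Ccl7, Pcp4 and Rprm in the 3 that kept Sham 2. The p-values measure the spread between pooled libraries, and cells are not counted as replicates.

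Ptger3, a receptor for prostaglandin E2, had the smallest p among lower genes. Its level was 59.3 and 56.1 CPM in CPIP members, against 134 and 130.2 CPM in Sham members. The groups did not overlap, and the libraries of each group lay within a few CPM of each other. The log2 fold change was -1.20 ± 0.14 (SE), with an adjusted p of 0.0996 in edgeR. At least 1 Ptger3 UMI was found in 30.5% and 18.3% of CPIP members, and in 43.0% and 47.3% of Sham members. In the Calca class Ptger3 stood at 48.4 and 73.7 CPM in CPIP libraries, against 230.5 and 173 CPM in Sham libraries. In the P2rx3 class it stood at 75.1 and 59.1 CPM in CPIP libraries, against 111 and 109 CPM in Sham libraries. In other neurons it was at 32.3 and 36.6 CPM in CPIP libraries, against 38.4 and 42.4 CPM in Sham libraries, a log2 change of -0.24.

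Htr3a, the serotonin-gated 5-HT3A channel, was next among lower genes, with 134 and 144 CPM in CPIP members against 229.6 and 225 CPM in Sham members. Its log2 fold change was -0.71 ± 0.12 (SE), with an adjusted p of 0.626 in edgeR. Acly, which makes cytosolic acetyl-CoA, had 311 and 284 CPM in CPIP members against 416 and 521 CPM in Sham members. Tbc1d24 and Cdh4, a synaptic vesicle protein and R-cadherin, had log2 changes of -1.30 and -1.09, each with an adjusted p of 0.839 in edgeR.

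Among higher genes the smallest p belonged to Rpl10a-ps9, annotated by its name as a ribosomal protein pseudogene, with 47 and 61 UMIs in CPIP members against 2 and 0 in Sham members. The ratio of CPIP to Sham was 61.8, with an exact 95% counting interval of 16.7 to 517 that leaves out the spread between cells and between libraries. The adjusted p was 0.0900 in edgeR. It was not particular to members in level: other neurons had 22.4 and 35.1 CPM in CPIP libraries, against 0.645 and 0.786 CPM in Sham libraries, and it was the 1 gene of 14541 that passed there (0.00688% called higher, adjusted p 0.0363 in edgeR). UMIs of near-identical ribosomal copies may have been split by the counting, which was not tested.

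S100a5, a calcium-binding protein, had 56 and 37 UMIs in CPIP members against 1 and 2 in Sham members. The ratio was 35.5, with an exact 95% counting interval of 11.8 to 175 that leaves out the spread between cells and between libraries. The adjusted p was 0.0900 in edgeR. Few cells carried it: 16 of 174 and 10 of 180 CPIP members had a UMI, and the top 3 cells held 64.3% and 78.4% of its UMIs. Of these UMIs, 49 and 34 came from the S100a16 class, which gave 1 and 0 UMIs in Sham libraries, where it had 30 and 10 cells. Other neurons had 4.51 and 2.98 CPM in CPIP libraries, against 2.01 and 2.47 CPM in Sham libraries.

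Ccl7, a monocyte chemokine, had 48.6 and 44.1 CPM in CPIP members against 16.8 and 17.3 CPM in Sham members. Its log2 fold change was 1.44 ± 0.20 (SE), with an adjusted p of 0.274 in edgeR. The top 3 cells held 53.8% and 37.6% of the Ccl7 UMIs in CPIP libraries, and 45.9% and 24.3% in Sham libraries. Pcp4, a calmodulin-binding peptide, had 152 and 248 CPM in CPIP members against 66.3 and 77.9 CPM in Sham members, with a log2 change of 1.47 ± 0.24 (SE) and an adjusted p of 0.626 in edgeR. At least 1 Pcp4 UMI was found in 13.8% and 23.3% of CPIP members, and in 16.4% and 8.64% of Sham members. In CPIP libraries the top 3 cells held 62.7% and 26.8% of the Pcp4 UMIs, and in Sham libraries 21.2% and 57.5%. Without the P2rx3 and S100a16 classes the log2 change of Pcp4 was -0.0116. Rprm (Reprimo, a cell cycle inhibitor) had 97.8 and 161 CPM in CPIP members against 50.8 and 35.9 CPM in Sham members, with a log2 change of 1.58 ± 0.27 (SE) and an adjusted p of 0.635 in edgeR. The top 3 cells held 46.4% and 22.3% of the Rprm UMIs in CPIP 1 and CPIP 2, and 27.7% and 40.3% in Sham 1 and Sham 2.

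Kcna1 and Calca had no call, and Kcnv1, a gene of the rule, is given without a test. Kcnv1 was at 181 and 197 CPM in CPIP members, against 208 and 258 CPM in Sham members. Kcna1 was at 150.2 and 226 CPM in CPIP members, against 241 and 256 CPM in Sham members, with a log2 change of -0.40 ± 0.19 (SE). Calca was at 4293 and 4957 CPM in CPIP members, against 5926 and 7427 CPM in Sham members. The CPIP values of Kcna1 and Calca lay below the Sham values, as did 17.9% of the tested genes, and 16.9% lay wholly above. The log2 change of Calca was -0.53 ± 0.15 (SE, adjusted p 0.839 in edgeR), and it was -0.12 in other neurons.

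Gene groups are described by counts beside that background, with a median log2 change of 0.0007 over all tested genes; no listed gene passed the test in members. Of 22 tested immediate early genes, which respond to activity and to dissociation, 20 had a positive log2 change and 11 lay wholly above Sham, with a median of 0.29. Jund had 617 and 608 CPM in CPIP members against 553 and 510.0 CPM in Sham members, while Egr1 had 80.2 and 69.1 CPM against 90.8 and 95.7 CPM. Of 47 nuclear genes of oxidative phosphorylation, 39 were positive and 22 lay wholly above, with a median of 0.12. Both list sums also lay wholly above Sham in other neurons. Immediate early genes had 3233 and 3381 CPM there in CPIP, against 2806 and 2963 CPM in Sham. Oxidative phosphorylation genes had 18875 and 19007 CPM against 17937 and 17908 CPM. The axon injury sums overlapped there, at 3434 and 3782 CPM against 3264 and 3485 CPM. Satellite glia averaged 19279 CPM of the immediate early genes and members 1807 CPM. Of 16 axon injury genes, 13 were positive and 9 lay wholly above; Gap43, a growth cone protein, had 2692 and 2756 CPM in CPIP members against 2464 and 2151 CPM in Sham members, whereas Bdnf had 78.0 and 100.2 CPM against 70.8 and 105 CPM.

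Of 22 tested potassium channel pore genes, 4 were positive and 7 lay wholly below Sham, with a median of -0.12. Of 14 silent and auxiliary subunits, 4 were positive and 4 lay wholly below. Kcns3, which like Kcnv1 encodes a silent subunit (Kv9.3), had 40.6 and 40.5 CPM in CPIP members against 65.3 and 104 CPM in Sham members. Of 8 voltage-gated sodium channel genes, 5 were positive and 1 lay wholly below. Of 8 cytokine genes, 7 were positive and 5 lay wholly above. Among these, Ccl2 had 179.6 and 209 CPM in CPIP members against 114 and 129 CPM in Sham members. The 19 listed cytokine genes summed to 897 and 951 CPM in other neurons of CPIP libraries, against 820 and 713 CPM in Sham libraries. Satellite glia averaged 7876 CPM of this list and members 532 CPM.

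Markers of other cell types are given beside these values, and their part in the results was not tested. The groups overlapped in the Schwann cell, satellite glia and macrophage sums, and only the fibroblast sums lay apart. The 10 Schwann cell markers summed to 2478 and 1818 CPM in CPIP members against 1835 and 1614 CPM in Sham members; Pmp22 was highest and Ncmap was at 0 in all 4 libraries. The 6 fibroblast markers summed to 114 and 134 CPM in CPIP members against 74.9 and 76.5 CPM in Sham members, with Col1a1 highest and with Dcn and Lum at 0 in CPIP 1 and both Sham libraries. The 10 satellite glia markers summed to 565 and 754 CPM in CPIP members against 614 and 697 CPM in Sham members, and to 13723 CPM in satellite glia. The 8 macrophage markers summed to 17.6 and 11.9 CPM in CPIP members against 52.2 and 12.6 CPM in Sham members, with C1qa at 0 in all 4 libraries.

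**Figure D5:**
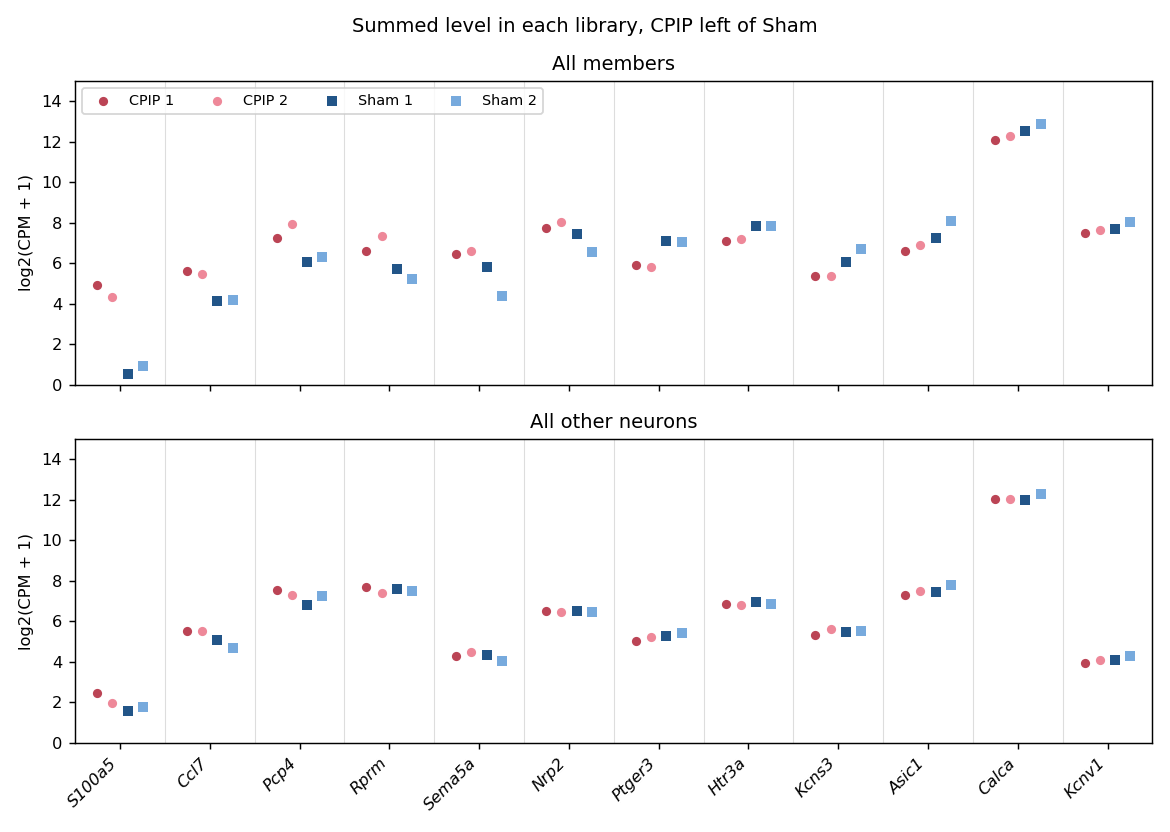
Level of 12 genes in each library as log2(CPM + 1), in members (top) and all other neurons (bottom), CPIP libraries as circles left of Sham libraries as squares. In members S100a5, Ccl7, Pcp4 and Rprm lie higher and Ptger3, Htr3a and Kcns3 lower in both CPIP libraries; in other neurons the circles and squares lie closer together.

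The third comparison tested whether the CPIP effect itself differed between members and other neurons, in one edgeR model over 8 sums with library as a block. Of 13821 genes, 34 passed (0.246%), of which 21 had a higher effect in members (0.152%) and 13 a lower one (0.0941%). This count depended on the test and on how the members were taken. DESeq2 called 0 genes on the same members, with 179 at an unadjusted p under 0.05, and edgeR called 78 with the replicate block. It called 0 once the scrublet doublets had been left out, with 634. It called 4 genes (Ptger3, S100a5, Htr3a and Tagln3) with at least 16 neurofilament UMIs per member and 112 with at least 2 Kcnv1 UMIs. The model gives a single spread to sums of very different depth.

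The 21 genes with a higher effect held many that mark a class. In the S100a16 class 10 of the 21 were more than 2 times their level in the other members, as were 13.8% of all tested genes. In the Calca class 9 of the 13 with a lower effect were, against 14.6% of all tested genes. The share of the S100a16 class was higher in both CPIP libraries than in both Sham libraries. The Calca class shares overlapped between groups, with both CPIP libraries below Sham 2 but CPIP 2 above Sham 1. The part of the classes in these calls was not tested, beyond a fit without the P2rx3 and S100a16 classes, which called 38 genes, 14 of them among the 34.

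Among the named genes, the call of Ptger3 held under the most settings, 13 of 15; it was lost in DESeq2 (adjusted p 0.321) and without the scrublet doublets (edgeR adjusted p 0.0503). Its CPIP effect in members was lower than in other neurons by a log2 difference of -0.96 ± 0.16 (SE, adjusted p 0.00266 in edgeR). The difference for Rprm was 1.59 ± 0.21 (SE, adjusted p 0.000154 in edgeR), since Rprm was at 209 and 168 CPM in CPIP and at 194 and 182 CPM in Sham among other neurons. Nrp2 had a difference of 0.87 and Sema5a of 1.16; both were highest in the S100a16 class. Kcns3 had a difference of -1.02 and Asic1 of -0.71, with Asic1 at 95.7 and 120.5 CPM in CPIP members against 151 and 273 CPM in Sham members. Of the 13 genes with a lower effect, Il1b, Lyz2, Bcl2a1, Ccl3 and Cd74 are immune cell genes. Summed over the 8 macrophage markers, Lyz2 and Cd74 among them, the Calca class had 136 CPM in Sham 1. It had 6.70 to 7.91 CPM in the other libraries, and the part of this signal in the calls was not tested. Of the 13, 3 had no UMI in CPIP members, so their fitted values depend on the prior count.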

How the data were processed

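Each deposited matrix holds UMI counts of the authors by gene and cell, as unnormalized whole numbers, per the file headers. Their aligner, annotation and genome build: not given in the sources used here. All 4 libraries listed the same 25629 features, 3852 of them without a symbol. No column was left out. Members were found by the rule above, and members and gene lists (35 lists, 497 of 514 symbols measured) were chosen with earlier results of these data known. Pvalb neurons had at least 2 Pvalb and 8 neurofilament UMIs, Cbln2 neurons at least 2 Cbln2 and 8 neurofilament UMIs with Pvalb under 2, and Adcyap1 neurons at least 2 Adcyap1 UMIs with Pvalb and Cbln2 under 2.

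UMIs were summed per library and cell set, and CPM are these sums scaled to 1000000. Ratios used 0.5 added UMIs. CPIP was compared with Sham by edgeR 4.0.16 (TMM, filterByExpr, quasi-likelihood test, Benjamini-Hochberg adjustment over all tested genes), first tested on simulated data; DESeq2 1.42.0 was an alternative. Shares were compared by exact permutation over libraries; 1 of the 3 shares tested, and some genes, are not reported here. Named genes were the leading 25, the rule's and listed genes, the 5 smallest p-values per direction, and up to 10 called differences per direction with at least 32 CPM whose groups did not overlap. Doublets stayed in the main analysis. Scrublet (scanpy 1.11.5) called under 0.5% of cells in 3 libraries, where the top 5% of scores were removed for the alternative. Results without doublets are those without these barcodes, most of which scrublet had not called in those 3 libraries. Intervals on UMIs cover counting error only. The SE of an edgeR log2 change is its absolute value divided by the square root of the test's F statistic, so it adds nothing beyond the p-value. Replicate numbers did not pair the samples by any label.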

Additional observations from a re-analysis of the deposited data

Results flagged for a closer look

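The difference of CPIP effects (members minus other neurons, log2) passed the edgeR test of the difference itself for the genes named here, which had groups apart in members and a mean of at least 32 CPM and were taken in order of size, up to 10 in each direction. The effect was higher in members for Rprm (1.59), Sema5a (1.16), the cytochrome Cyp1b1 (1.11), Pcp4 (1.06), the myristoyltransferase Nmt2 (0.99), the ferrireductase Steap3 (0.98), Nrp2 (0.87), the spermine synthase Sms (0.87) and the neuron navigator Nav3 (0.77). It was lower in members for Kcns3 (-1.02), Igfbp5 (-0.98), Ptger3 (-0.96), Asic1 (-0.71), Tmem47 (-0.66), Htr3a (-0.60) and S100b (-0.56). For Igfbp5, Tmem47 and S100b the CPIP effect was positive in other neurons (0.56, 0.41 and 0.12) and negative in members (-0.42, -0.25 and -0.43). None of these genes was called by DESeq2 or without the scrublet doublets.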

How the results depend on the processing

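The count of genes between CPIP and Sham members stayed at 0 under RLE factors, the replicate block, stricter cells, no doublets, Kcnv1 of at least 2, neurofilament of at least 16, excluded genes at 0, and without the P2rx3 and S100a16 classes (a restriction chosen after seeing the data). It was 2 without the filter on low counts (S100a5 and Rpl10a-ps9), 2 in members with under 3 P2rx3 UMIs (S100a5 and Ptger3, a restriction chosen after seeing the data) and 6 by DESeq2. Leaving out 1 library gave 5 to 240 (240 without CPIP 1, 36 without CPIP 2, 41 without Sham 1, 5 without Sham 2), where the lone library is assumed to vary like the other group. The 34 differences in effect became 72 without the filter, 78 with the replicate block, 13 with stricter cells, 0 without doublets, 112 with Kcnv1 of at least 2, 4 with neurofilament of at least 16, 93 with excluded genes at 0, 0 by DESeq2, and 33 to 128 without 1 library (58 without CPIP 1, 59 without CPIP 2, 128 without Sham 1, 33 without Sham 2). The cause was not tested.

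The share of members kept its sign in 13 of 13 alternatives (-1.10 to -0.549 without 1 library). Without 1 library the sign was fixed, since both CPIP shares lay below both Sham shares, and the replicate block repeats the main difference. Thinned to 5000 UMIs, the difference was -0.0398 percentage points and the groups overlapped. The Calca difference ran from -3.90 to -0.220 percentage points without 1 library, turning to 0.250 with Kcnv1 of at least 2, 0.486 with neurofilament of at least 16 and 0.795 with excluded genes at 0. Among named genes, the CPIP effect of Pcp4 reversed to -0.0116 and its difference to -0.35 without both classes; 115 of 149 CPIP effects and 138 of 240 differences kept direction and side of the threshold. No label pairs the samples by number. Deviations from the group means correlated at 0.00241 between same-numbered libraries, which with 2 libraries per group cannot settle pairing. Under the replicate block the exact permutation p of the share was 0.5, the smallest that this paired test can give. With 174 to 220 members per library, members carried few UMIs of low genes.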
